A study of Mus musculus with 282 samples.

Results

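Inflamed basal cells are the cells that the labels call inflamed in a single-cell RNA-seq series of basal prostate stem cells from male POET3 mice. The members were the cells labelled inflamed in batches 2 and 3 that had at least 1000 detected genes and at least 50000 counts. They were 80 of the 85 inflamed cells of batch 2 and 76 of the 78 of batch 3, among 282 cells in all. The other cells were naive, and 53 of batch 2 and 59 of batch 3 passed the same limits. They serve here only as the background of a value. The POET3 strain is a prostatitis model in which the prostate makes ovalbumin from a transgene. Both groups came from these mice, and the labels set them apart only as naive or inflamed. The sources used here do not give the strain background, age, transgene promoter, number of animals, trigger of the inflammation or time after it. Cells of digested prostate were sorted after staining for viability, CD45, CD31, Sca-1 (the product of Ly6a) and CD49f (the product of Itga6), so Ly6a and Itga6 bear on the sort. A Fluidigm C1 instrument held each sorted cell in a chamber of its own. The question addressed here is how far the inflamed cells differed among themselves.

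Basal cells of the prostate line the outer side of its ducts, rest on the basement membrane and include cells that can give rise to new epithelium. Inflamed epithelium answers interferon gamma, tumour necrosis factor and interleukin 1 through signalling pathways that include NF-kB and switch on antigen presentation, chemokines and prostaglandin synthesis. MHC class I is made by nearly all nucleated cells, whereas epithelium makes MHC class II mainly after interferon gamma, through the coactivator Ciita.

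The inflamed cells had a median of 1001872 counts in batch 2 and 998864 in batch 3, and a median of 4683 and 4108.5 detected genes. Counts are reads without molecular identifiers, so intervals and limits cover counting error only. Of the values above 0, 34.9% in batch 2 and 29.02% in batch 3 were between 1 and 4 reads. A gene with no read allows a share of cells of up to 3.75% in batch 2 and 3.95% in batch 3 (3 cells of the total). Cells are not replicates and no animal is named, so each batch was treated as 1 sample. Batch, capture and animals cannot be told apart, no test between batches was made, and a result that repeats is one seen in both batches. In batch 2, 6 inflamed cells gave over 50% of their counts to mitochondrially encoded genes, with 67871 to 178340 counts each and the next cell at 37.3%. No cell of batch 3 did so. A pair of batch 2 cells had a correlation of 0.96 in log2(CPM + 1), where the next highest pair had 0.66, and these may not be separate cells. CPM is a gene's count scaled to a total of 1000000 in every cell. Values without the 6 mitochondrial cells, or with the pair counted once, are given beside several batch 2 results, and the other values stand with every cell in.

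The labelled cell type was checked against its markers. Krt15 was read in 100% of the cells of both batches, Krt14 in 97.5% of batch 2 and 100% of batch 3, and Krt5 in 93.8% and 98.7%. Trp63, a regulator of basal identity, had a read in 66.2% and 76.3%. The luminal keratin Krt18 was also read in 100% of the cells of both batches, while the secretory luminal genes Pbsn and Msmb each had a read in 1.25% of batch 2 cells and in no cell of batch 3. Of 16 leukocyte markers, 12 had no read in any inflamed cell, among them Ptprc, Laptm5, Tyrobp, Lyz2 and Cd3e. No inflamed cell had 5 reads or more of more than 1 of the 16. Cd68, which is also made outside leukocytes, was read in 17.5% and 11.8%. Of 8 endothelial markers 5 had no read, of 12 fibroblast and smooth muscle markers 5 had none, and of 6 neuroendocrine markers 4 had none. Among inflamed cells, seminal vesicle genes were read in batch 2 alone, Svs2 in 18.8% of its cells and Pate4 in 10%, with 5 reads or more in 2 and 4 cells. In naive cells Svs2 had a read in 1.89% of batch 2 and 49.2% of batch 3. The proteoglycan gene Dcn was nevertheless read in 100% of the cells of both batches, beside the fibroblast collagen Col1a1 in 2.50% and 3.95%. The part of other cell types in the values that follow was not tested beyond these levels.

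Most genes of the inflammatory response were on in part of the inflamed cells. Of 240 genes in 12 response lists, 218 had a read in an inflamed cell. A gene was called uniform if it had a read in at least 90% of the cells of both batches. By that rule 28 of the 218 were uniform (12.8%), where 2.97% of all 20795 genes read in an inflamed cell were. A gene of few cells had a read in at most 25% of the cells of each batch and in at least 3 cells of each. There were 34 of these (15.6%), against 26% of all genes. Of the 240 genes 41 were under 3 cells in both batches, including 22 with no read, and the rest lay between. A read is a low bar, since many cells held a trace of a gene that other cells held at high levels. At 10 CPM, a limit chosen after the data were seen, 17 response genes were uniform (7.80%, against 1.32% of all genes). At that limit 55 were in few cells (25.2%, against 24.9% of all genes), so genes of few cells took about the same share of the response lists as of all genes.

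**Figure D1:**
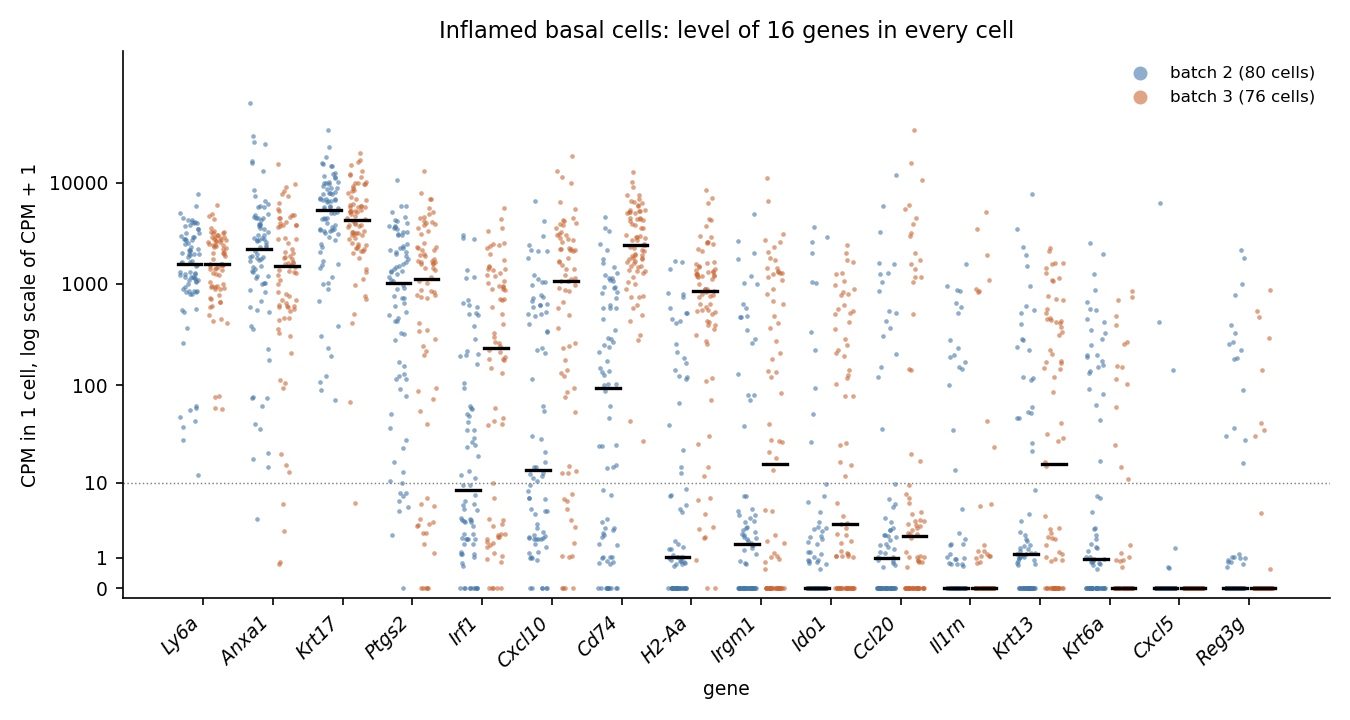
Level of 16 response genes in each of the 80 inflamed cells of batch 2 and 76 of batch 3. Each point is 1 cell, the vertical axis is CPM on a log scale of CPM + 1, black bars are medians and the dotted line is 10 CPM. Ly6a, Anxa1 and Krt17 have nearly all cells above 10 CPM, with the widest spread of levels in Anxa1. By contrast, Ccl20, Irgm1, Ido1, Krt13 and Il1rn have cells above 100 CPM and many cells at or near 0.

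The core genes of MHC class I were read in every inflamed cell and were named for their narrow spread. B2m, the light chain of class I, was read in every inflamed cell, from 391 CPM through a median of 4243 to 19677 in batch 2 and from 1865 through 4724 to 16054 in batch 3. Its 90th percentile was 3.50 and 2.78 times its 10th, where the median of that ratio over 9 uniform housekeeping genes was 6.08 and 5.33. The heavy chain H2-K1 had a ratio of 5.36 and 4.26 and H2-D1 of 5.85 and 3.27. The housekeeping genes were not matched to them for level. By variation beyond that of genes of like level, defined below, B2m was at the 40.8th percentile in batch 2 and the 16.3rd in batch 3. On the same measure H2-K1 was at the 20.3rd and 23.7th percentile and H2-D1 at the 27.7th and 17.7th. These heavy chains share sequence with other class I genes, and how reads with more than 1 match were counted is not given, so their levels are uncertain in part. The peptide transporter gene Tap1 and the immunoproteasome were patchier. Tap1 was at 10 CPM or more in 18.8% of batch 2 cells and 39.5% of batch 3 cells, Psmb9 in 23.8% and 48.7%, and Psmb8 in 37.5% and 75%. Of the 24 genes of class I and peptide loading 5 were uniform by a read, namely B2m, H2-K1, H2-D1 and the general chaperones Canx and Pdia3.

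The other response genes described here were read in nearly every cell, at levels of differing spread. Krt17 (ENSMUSG00000035557, chr11:100256217-100261029), an intermediate filament of stressed epithelium, was read in every cell, at 70.8 to 32748 CPM with a median of 5323 in batch 2 and at 5.92 to 19787 with a median of 4289 in batch 3. Ly6a (ENSMUSG00000075602, chr15:74994877-74998031), used in the sort, had a median of 1579 CPM in batch 2 (range 12.04 to 7678) and 1580 in batch 3 (range 57.2 to 6068). Its ratio of the 90th to the 10th percentile was 16.6 and 5.86, and that of Krt17 18.5 and 8.81. Nfkbia, the inhibitor that NF-kB itself induces, was read in 100% of the cells of both batches, and so were Ly6e, Cstb, Sfn, Sprr1a, Clu and Cldn4. Of these Nfkbia had a ratio of 28.5 and 5.14, Clu of 36.9 and 21.4, and Ly6e of 10.2 and 6.17, so detection in every cell went with levels both narrow and wide. Pim1, a kinase gene downstream of STAT factors, was at 10 CPM or more in 97.5% and 100%, with a ratio of the 90th to the 10th percentile of 8.88 and 8.71. Ptges3, a prostaglandin synthase and chaperone partner, had a ratio of 9.84 and 3.98, and Anxa2 of 13.5 and 5.25. Over all 28 uniform response genes the median ratio was 32.9 and 16.3, and over all 617 uniform genes it was 35.6 and 26.8. Naive cells reached 10 CPM of Nfkbia in 100% of batch 2 and 98.3% of batch 3. Their shares were 100% and 100% for Ptges3, 100% and 96.6% for Ly6e, and 88.7% and 96.6% for Krt17. They were 84.9% and 71.2% for Ly6a and lower for Clu, at 30.2% and 52.5%. Detection in every inflamed cell is therefore not by itself a sign of a response.

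Uniform detection did not mean a uniform level. In the GENCODE annotation of GRCm38.p6 Anxa1 (ENSMUSG00000024659) spans chr19:20373428-20390944 on the minus strand and Ptgs2 (ENSMUSG00000032487) chr1:150100031-150108227 on the plus strand. Anxa1, a phospholipid-binding protein that curbs inflammation, was read in 100% of the cells of both batches (95% exact interval 95.5% to 100% in batch 2 and 95.3% to 100% in batch 3). It ran from 3.82 CPM through a median of 2207 to 60650 in batch 2 and from 0.75 through 1492 to 15142 in batch 3, with a ratio of the 90th to the 10th percentile of 101.4 and 54.2. Ptgs2, the inducible cyclooxygenase, had a read in 98.8% of batch 2 cells and 93.4% of batch 3 cells, and 10 CPM or more in 90% and 77.6%. Its median was 1028 CPM in batch 2 and 1113 in batch 3, its highest cell 10655 and 12956, and its ratio 387 and 1823. Cells well under the median of Ptgs2 were thus present in both batches. In naive cells Ptgs2 was at 10 CPM or more in 15.1% of batch 2 and 20.3% of batch 3, and Anxa1 in 60.4% and 44.1%. The ratio was also wide for Ifngr1, a chain of the interferon gamma receptor (459 and 599), for Ly6d (647 and 546), for the apoptosis inhibitor Birc3 (1971 and 1543) and for Cxcl10 (1275 and 1742). The 10th percentiles of Ifngr1, Ly6d, Birc3 and Cxcl10 ran from 0.70 to 4.30 CPM, and that of Ptgs2 was 9.79 and 2.47. At the median depth these are a few reads, so the size of these ratios depends on depth and is not a measure of spread alone.

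**Figure D2:**
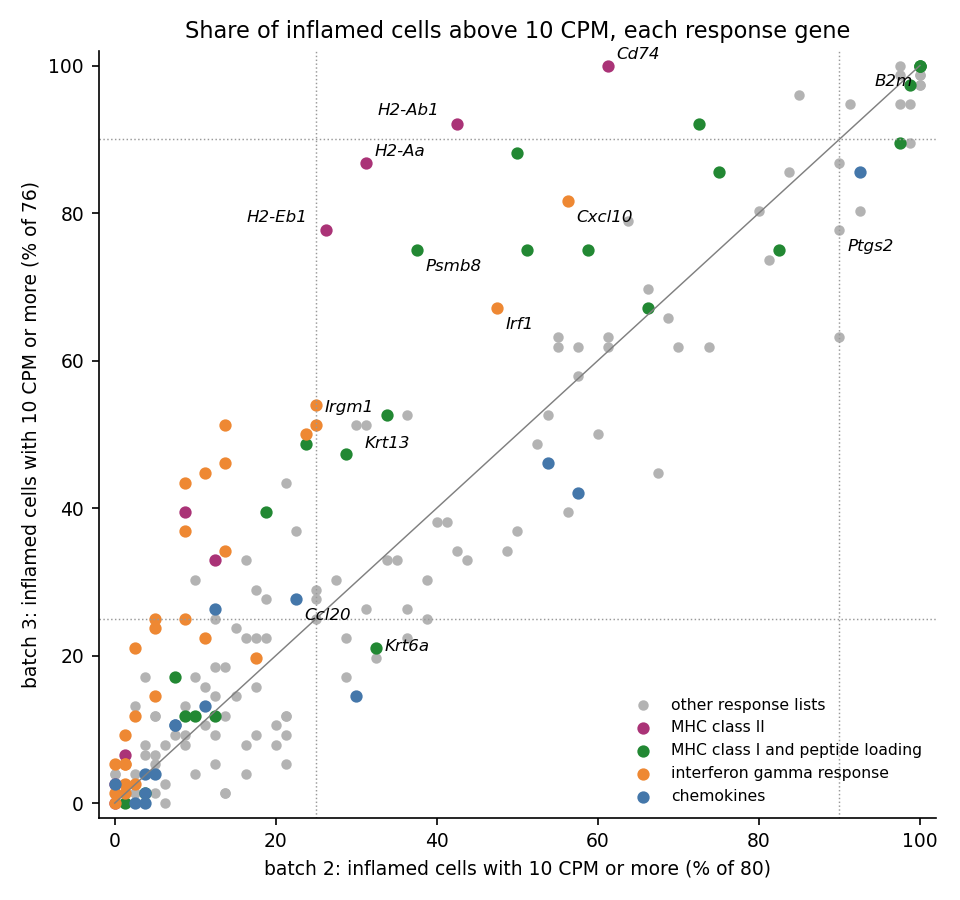
Share of inflamed cells at 10 CPM or more for each response gene with a read, batch 2 (percent of 80 cells) against batch 3 (percent of 76 cells). Dotted lines mark 25% and 90%, the diagonal marks equal shares, and colours mark 4 lists. The class II genes and most interferon gamma genes lie above the diagonal, and Krt6a lies below it.

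Genes of the interferon gamma response were patchy in both batches and were read in more cells of batch 3. Of 28 genes on this list only Cxcl10 was uniform by a read, none was at 10 CPM, and 6 were in few cells. A batch 2 cell had a median of 3 of the 28 at 5 reads or more and a batch 3 cell a median of 7, with a highest value of 14 and 18. A naive cell had a median of 2 in batch 2 and 1 in batch 3. Irf1, the transcription factor at the head of the response, was at 10 CPM or more in 47.5% of batch 2 cells and 67.1% of batch 3 cells. Irgm1, a GTPase that acts on vacuoles holding microbes, reached 10 CPM in 25% and 51.3%, with a median of 1.73 and 15.95 CPM and a highest cell of 4892 and 11158. Gbp2 (13.8% and 51.3%), Ido1, which degrades tryptophan (13.8% and 46.1%), and Ubd, a ubiquitin-like modifier (23.8% and 50%), showed the same split into high cells and cells near 0. Naive cells reached 10 CPM in 0% to 3.77% for Irgm1, Gbp2, Ido1 and Ubd. Cxcl10 was different in its background. It had a read in 92.5% and 94.7% of inflamed cells but reached 10 CPM in 56.2% and 81.6%, and in 96.2% and 77.97% of naive cells.

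The MHC class II genes H2-Aa, H2-Ab1, H2-Eb1 and Cd74 were held by part of the inflamed cells of batch 2 and by most of batch 3. None of the 12 genes of the class II list was uniform, 9 had a read, and the median share of cells with a read over the list was 9.38% and 27.6%. H2-Aa (ENSMUSG00000036594, chr17:34282744-34287823 on the minus strand), the alpha chain of I-A, had a read in 63.8% of batch 2 cells (95% exact interval 52.2% to 74.2%) and 97.4% of batch 3 cells (90.8% to 99.7%). At 10 CPM the shares were 31.2% and 86.8%. It ran from 0 through a median of 1.02 CPM to 1691 in batch 2 and from 0 through 850.04 to 8485 in batch 3. H2-Ab1, its beta chain, reached 10 CPM in 42.5% and 92.1%, H2-Eb1, the beta chain of I-E, in 26.2% and 77.6%, and Cd74, the invariant chain that guides class II molecules through the cell, in 61.2% and 100%. H2-DMa and H2-DMb1, which load peptide, reached it in 8.75% and 12.5% of batch 2 cells and in 39.5% and 32.9% of batch 3 cells. No naive cell of either batch had 5 reads or more of H2-Aa or H2-Ab1, which allows up to 5.66% of naive cells in batch 2 and 5.08% in batch 3. At that level H2-Eb1 was found in 1 naive cell of batch 3, and Cd74 in 1 naive cell of each batch. A single read was a looser limit. H2-Ab1 had a read in 0% of naive cells in batch 2 and 13.6% in batch 3, and H2-Aa and H2-Eb1 each in 0% and 5.08%. The groups of inflamed cells overlapped between the batches, since each batch held cells with no read of H2-Aa. Batch, animals and capture cannot be told apart in this difference.

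Class II genes went together within a cell. Counting H2-Aa, H2-Ab1, H2-Eb1 and Cd74 at 5 reads or more, 24 of 80 batch 2 cells had none (30%), 22 had 1, 9 had 2, 12 had 3 and 13 had all 4 (16.2%). In batch 3, no cell had none, 1 had 1, 6 had 2, 17 had 3 and 52 of 76 had all 4 (68.4%). Without the 6 mitochondrial cells, 19 of 74 batch 2 cells had none (25.7%) and 13 had all 4 (17.6%), and with the near-identical pair counted once 24 of 79 had none (30.4%) and 13 had all 4 (16.5%). In batch 2, H2-Ab1 was at 5 reads or more in 84% of the 25 cells that had H2-Aa at that level and in 21.8% of the 55 that did not. In batch 3 the shares were 95.5% of 67 cells and 66.7% of 9. The leukocyte markers Ptprc, Tyrobp and Lyz2 had no read in any of these cells. Another of the 16 leukocyte markers was at 5 reads or more in 12.5% of batch 2 cells and 11.8% of batch 3 cells. The overlap of those cells with the class II genes was not tested.

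**Figure D3:**
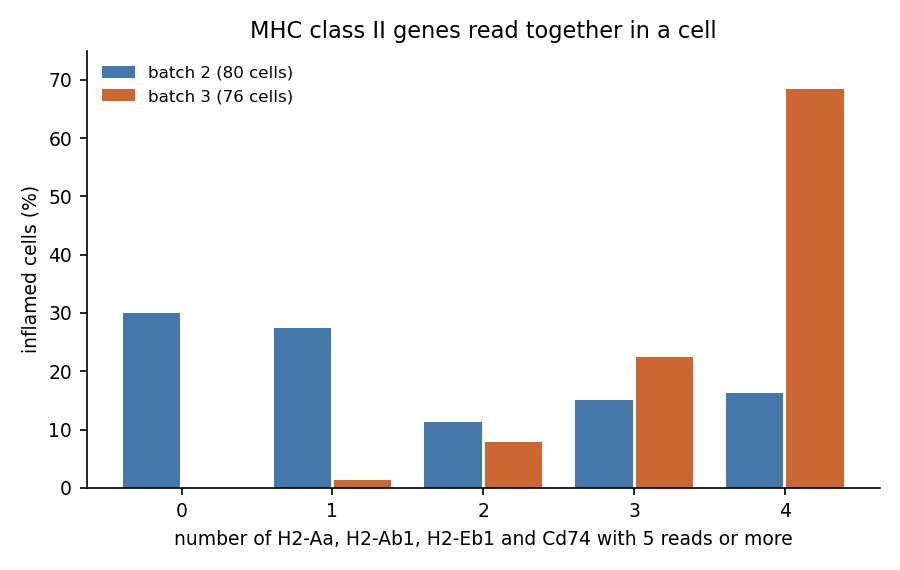
Percent of inflamed cells by how many of the genes H2-Aa, H2-Ab1, H2-Eb1 and Cd74 had 5 reads or more, for batch 2 (80 cells) and batch 3 (76 cells). Batch 2 cells are spread from 0 genes (30%) to 4 (16.2%), and 68.4% of batch 3 cells have all 4.

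The rank correlation of these genes over the cells of a batch, after removing its dependence on the number of detected genes, was among the highest of any list. H2-Ab1 and Cd74, on different chromosomes, had 0.57 in batch 2 and 0.63 in batch 3. H2-Aa had 0.59 and 0.49 with H2-Ab1, 0.41 and 0.58 with Cd74 (0.49 in batch 2 without the mitochondrial cells), and 0.29 and 0.34 with H2-Eb1. The promoters of 2 of them are shown because class II genes carry a shared block of elements, known as the X and Y boxes, on which Ciita acts. The sequences are the 150 bases before the RefSeq start of each gene in GRCm38.p6, 5′ to 3′ on the gene's strand. H2-Aa lies at chr17:34287824-34287973 on the minus strand and H2-Eb1 at chr17:34305717-34305866 on the plus strand. Capitals mark CTGATTGG, a Y box, and GCAACT, the core of an X box, searched on both strands after these promoters had been seen.
H2-Aa: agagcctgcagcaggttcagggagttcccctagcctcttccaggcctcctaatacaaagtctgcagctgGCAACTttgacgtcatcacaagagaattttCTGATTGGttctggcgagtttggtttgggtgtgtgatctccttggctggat
H2-Eb1: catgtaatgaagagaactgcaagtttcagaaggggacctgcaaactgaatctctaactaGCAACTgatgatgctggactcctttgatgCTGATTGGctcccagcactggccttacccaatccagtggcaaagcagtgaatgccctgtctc
The Y box began 51 bases before the start in H2-Aa and 62 in H2-Eb1, and the X core 81 and 91 bases before it. Of 32851 RefSeq promoter windows of 250 bases before a start, 3.83% held CTGATTGG and 9.01% held GCAACT on either strand. The X core followed by the Y box within 50 bases on the gene's strand was found in 6 windows (0.0183%), those of H2-Aa, H2-Eb1, H2-Eb2, Aldh4a1, Gm12253 and Narf. H2-DMa and H2-DMb1 have windows without these letters in that order. H2-Ab1 had no window matched to it and so could not be searched, and Cd74 was not among the genes of the 6 windows.

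B2m and Irgm1 are shown because one was held in every cell and the other split the cells, while both promoters hold the letters of an interferon-stimulated element. A link between these letters and the spread over cells was not tested. Capitals mark GAAA and a second GAAA with any 2 bases between them, searched on both strands after these promoters had been seen, in the 150 bases before the RefSeq start at chr2:122147537-122147686 on the plus strand for B2m and at chr11:48871421-48871570 on the minus strand for Irgm1.
B2m: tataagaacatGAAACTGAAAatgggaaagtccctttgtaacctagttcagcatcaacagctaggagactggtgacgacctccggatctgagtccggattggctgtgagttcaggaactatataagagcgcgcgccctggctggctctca
Irgm1: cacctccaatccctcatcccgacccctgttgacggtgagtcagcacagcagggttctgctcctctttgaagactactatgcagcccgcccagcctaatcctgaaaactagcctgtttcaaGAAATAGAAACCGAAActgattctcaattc
B2m has 1 copy near the far end of the stretch, and Irgm1 has overlapping copies that begin 30 and 24 bases before its start. It was found in 2.98% of the 32851 windows. A match is a run of letters and not a measured site.

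Chemokine genes ranged from Ccl20 and Ccl2, with most reads in a small part of the cells, to the widely held Cxcl16. Ccl20, which draws in cells that carry the receptor Ccr6, had a read in 56.2% of batch 2 cells and 64.5% of batch 3 cells. Its median was 0.97 and 2.26 CPM and its highest cell 11932 and 33268. The 10% of cells highest in Ccl20, 8 in each batch, held 90.3% and 88.7% of its reads, where the median over the 5978 genes read in at least 20% of the cells of each batch was 68.2% and 73.2%, and 1 cell held 38.9% and 53.1%. No naive cell reached 10 CPM of Ccl20. The neutrophil chemokines Cxcl1 and Cxcl2 were at 10 CPM or more in 53.8% and 57.5% of batch 2 cells and in 46.1% and 42.1% of batch 3 cells. Cxcl16 was widely held, at 92.5% and 85.5%. Ccl2 was in few cells, with a read in 12.5% and 14.5% and a highest cell of 1184 and 923 CPM. Cxcl2 was at 5 reads or more in 75% of the 20 batch 2 cells with 5 reads of Ccl20 and in 56.7% of the others, but in batch 3 in 44% of 25 cells and 45.1% of the others, although their rank correlation was 0.19 and 0.13.

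Genes of the interleukin 1 family were held by part of the inflamed cells, with little shared variation. Il1rn, the receptor antagonist that the study's title names, had a read in 41.2% of batch 2 cells and 27.6% of batch 3 cells and reached 10 CPM in 21.2% and 11.8%, with a highest cell of 1559 and 5128 CPM. Il1a, an agonist of the same receptor, reached 10 CPM in 11.2% and 15.8%. No naive cell reached 10 CPM of either. At 5 reads or more, Il1a was found in 3 of the 18 batch 2 cells with Il1rn (16.7%) and in 8.06% of the 62 others, and in batch 3 in 3 of 10 cells (30%) and in 13.6% of 66. Il1r1, the receptor that both bind, reached 10 CPM in 25% and 27.6%, and the decoy receptor Il1r2 in 16.2% and 22.4%. Il33, an alarmin stored in the nucleus, was more widely held, at 10 CPM or more in 63.8% and 78.9%. None of the 16 genes was uniform, and Il1b had no read. The median rank correlation between 9 genes of this family was 0.02 in batch 2 and -0.01 in batch 3.

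NF-kB genes were more widely held than interferon genes, and type I interferon genes were sparse. Of 25 NF-kB response genes, Nfkbia, Nfkbiz, Ier3 and Birc3 were uniform by a read, and 4 were in few cells, including Csf1, Tlr2 and Tnfaip2. A cell had a median of 12 of the 25 at 5 reads or more in batch 2 and 11.5 in batch 3, and a naive cell a median of 9 and 7. Icam1, a ligand for leukocyte integrins, was at 10 CPM or more in 66.2% and 69.7%, and Tnfaip3, which turns the pathway off, in 55% and 61.8%. Of 25 type I interferon genes none was uniform, and a cell had a median of 2 at 5 reads or more in each batch. A naive cell had a median of 1 of them in batch 2 and 0 in batch 3. Ifit2 had a read in 20% and 25% of the cells, with a highest cell of 418 and 5219 CPM. Other response genes of few cells were Gbp3, Tgtp2, Xaf1, Ifnar1, Cxcl12 and Sprr2h.

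Of 22 squamous and wound genes Krt17, Sprr1a, Sfn and Cstb were uniform, and Krt13, Krt6a and Krt16 were held by part of the cells. Krt13, a keratin of stratified epithelium, was at 10 CPM or more in 30% of batch 2 cells and 51.3% of batch 3 cells, with a highest cell of 7680 and 2252 CPM. Krt6a, a wound keratin with near-identical copies, reached it in 32.5% and 19.7%, and its partner Krt16 in 35% and 32.9%. At 5 reads or more, Krt16 was in 46.2% of batch 2 cells with Krt6a and 35.2% of those without, and in batch 3 in 33.3% and 36.1%, so the shares differed little in batch 3. The lectin Reg3g reached 10 CPM in 20% and 10.5%. Of 15 proximal duct genes 6 were uniform by a read and none was in few cells, and Wfdc2 (38.8% and 30.3% at 10 CPM) and Krt4 (16.2% and 32.9%) were among those in part of the cells. Across the response lists, 8 genes had a share of cells with a read that was at least 30 percentage points higher in batch 3, namely H2-Aa, H2-Ab1, H2-Eb1, Psmb8, Tap1, Gbp4, Gbp7 and Cxcl11. In batch 2, 3 genes were higher by as much, namely Erap1, Lif and Krt6a. Over all genes with a read, the shares of the batches had a rank correlation of 0.89 across genes, which are not independent replicates.

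Variation beyond that of genes of like level was measured as the log10 of the squared coefficient of variation above its trend with the mean. Of 5978 genes with a read in at least 20% of the cells of each batch, 2.64% were in the top 10% in both batches, or 26.4% of the 598 top genes of each batch. Among them were 11 response genes. The interferon gamma list gave 7 of its 14 tested genes. Chemokines gave 1 of 6, type I interferon genes 1 of 7, acute phase and antimicrobial genes 1 of 4 and proximal duct genes 1 of 12. The other response lists gave none, among them 22 class I and peptide loading genes and 20 NF-kB genes tested. Ccl20 was at the 99.6th percentile in batch 2 and above the 99.9th in batch 3. The next 9 response genes were Irgm1, Iigp1, C3, Clu, Cxcl10, Ifit2, Gbp2, Ubd and Nlrc5, most of them interferon gamma genes, with C3 and Clu from complement and its regulation. Single cells can drive this measure. For Ifit2, 1 cell held 53.5% of the reads in batch 2 and 75.2% in batch 3. For Nlrc5 these shares were 60.5% and 27.5%, and for Clu 7.08% and 9.57%. Clu, a secreted chaperone, was read in every cell and yet ran from 27.7 to 41209 CPM in batch 2 and from 5.65 to 49551 in batch 3. Outside the response lists Serpinb2, a protease inhibitor of stressed epithelium, had 99.8% of its reads in the highest 10% of batch 2 cells and over 99.9% in batch 3, with a highest cell of 5333 and 21432 CPM. The top 10 also held mt-Cytb and mt-Rnr2, which stayed at the 99.8th and 99.5th percentile in batch 2 without the 6 mitochondrial cells. Others of the top 10 reached 10 CPM in very few cells, such as Rbm45 in 1 cell of each batch and H2-Q2 in 2. The class II genes were not among the genes variable in both batches, H2-Aa being at the 75.9th and 82.5th percentile.

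**Figure D4:**
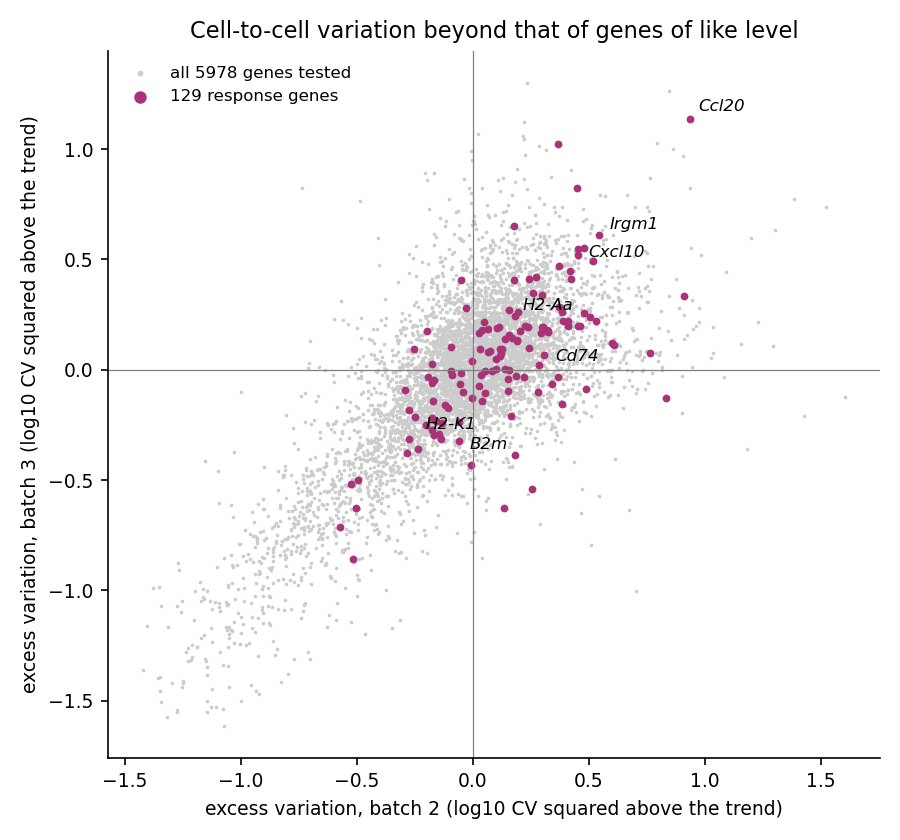
Excess variation of each of 5978 genes over inflamed cells, batch 2 against batch 3, in log10 of the squared coefficient of variation above the trend with the mean. Grey points are all genes and coloured points are response genes. Ccl20 lies at the upper right, B2m and H2-K1 lie below 0 on the batch 3 axis, and the rank correlation across genes is 0.63.

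Few gene pairs varied together strongly in both batches. Of 17865253 pairs 1061 had a rank correlation of at least 0.5 in both batches (0.00594%). Of these, 851 share a stretch of 30 bases and 994 hold a gene that is not protein coding, for example the ribosomal protein gene and its copy Rpl4 and Gm5835 (0.99 and 0.99), whose reads cannot be told apart. Among 12165861 pairs of protein-coding genes with no shared stretch and no overlap, 31 pairs of 29 genes were left (0.000255%). The metallothioneins Mt1 and Mt2 led them, at 0.72 in batch 2 and 0.73 in batch 3. Other pairs joined mitochondrially encoded genes, such as mt-Co1 and mt-Cytb (0.82 and 0.68), or genes of ribosomes and translation, such as Rpl37 and Rpl32 (0.72 and 0.60), apart from Gadl1 with Rpl32 (0.60 and 0.53). Of the response lists only the class II pair Cd74 and H2-Ab1 was among them. Among the lowest repeated values were those for the tight junction gene Cldn4 with mt-Co1 (-0.62 and -0.42, and -0.57 in batch 2 without the 6 mitochondrial cells), and for Clk1 with Slc34a2 (-0.46 and -0.43). Over all pairs, the correlations of the batches had a Pearson value of 0.05 across pairs. Most values lay near 0 in each batch, where these cell numbers leave wide error, so this value cannot show whether weak pairs repeat. Of all pairs at 0.5 or more in batch 3, 73.4% were so in batch 2, and of those in batch 2, 20.0% were so in batch 3. Among distinct protein-coding pairs the shares were 17.2% and 4.11%.

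The closest partners of each marker gene were taken among distinct protein-coding genes by the smaller of its values in the batches. Each is thus the highest of many values in these same cells. Over all distinct protein-coding pairs, the 1st to 99th percentile ran from -0.256 to 0.291 in batch 2 and from -0.266 to 0.279 in batch 3. Anxa1 was closest to Anxa2 (0.44 in batch 2 and 0.40 in batch 3) and to the annexin-binding S100a11 (0.53 and 0.36). Without the mitochondrial cells the batch 2 values were 0.37 for Anxa2 and 0.44 for S100a11. Ptgs2 was closest to the Notch ligand Jag1 (0.39 and 0.40) and to Adam10, a protease that cuts Notch receptors and other surface proteins (0.34 and 0.39). Krt17 was closest to Zyx, a focal adhesion protein (0.45 and 0.39), to F3, the tissue factor that starts coagulation (0.37 and 0.39), and to Sfn (0.36 and 0.39). Ly6a was closest to Ndufa4 (0.41 and 0.29) and, like Anxa1, to Anxa2 (0.28 and 0.33, and 0.20 in batch 2 without the mitochondrial cells). After the class II genes, H2-Aa was closest to the interferon gamma genes Ubd (0.30 and 0.27) and Igtp (0.30 and 0.26), whose batch 3 values lay inside that range. Among the markers themselves Ptgs2 and Krt17 went together weakly (0.29 and 0.23, and 0.21 in batch 2 without the mitochondrial cells). Anxa1 and H2-Aa were opposed weakly (-0.20 and -0.23). In each batch the values of these marker pairs lay inside the range over all distinct pairs. H2-Aa and Ly6a had -0.20 in batch 2 and 0.26 in batch 3, which did not repeat.

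**Figure D5:**
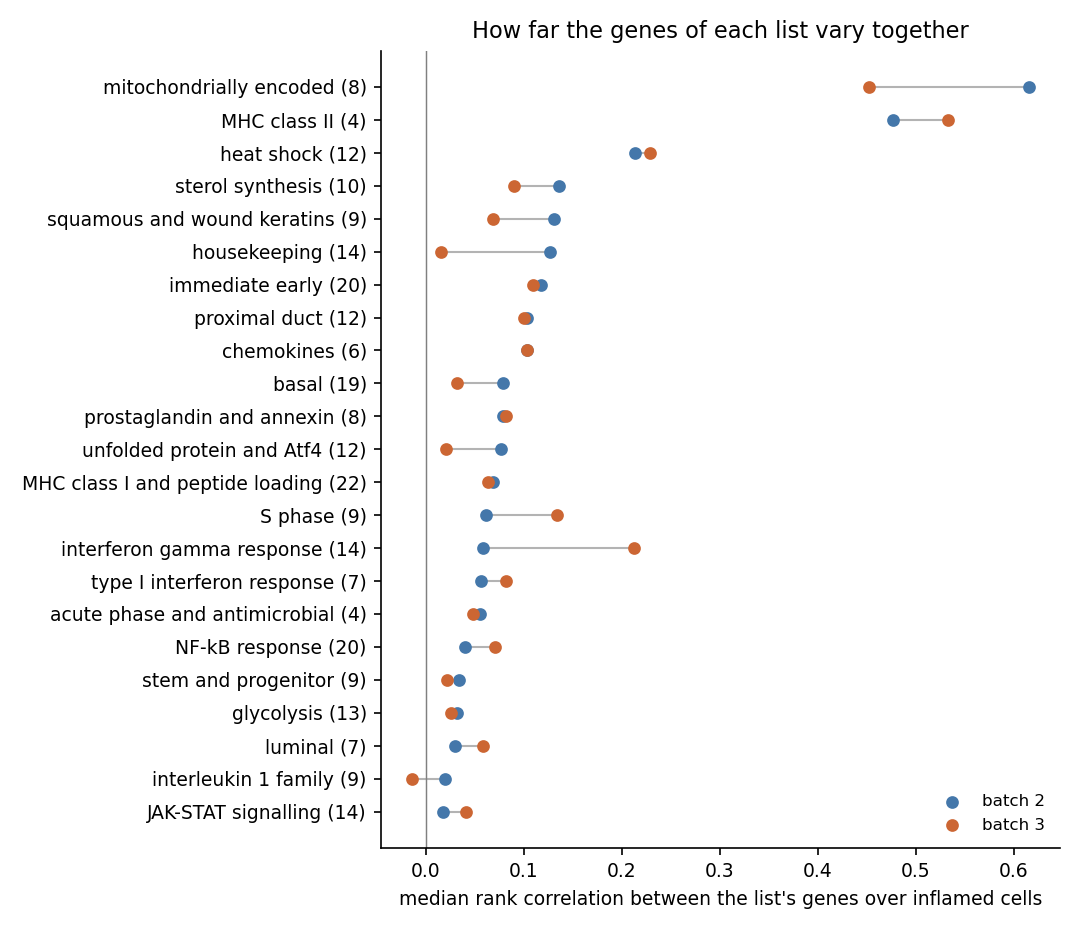
Median rank correlation between the genes of each list over the inflamed cells of batch 2 and batch 3, adjusted for detected genes, with the number of genes in brackets. MHC class II lies at 0.48 and 0.53, mitochondrially encoded genes at 0.62 and 0.45 (0.57 in batch 2 without the 6 mitochondrial cells), heat shock at 0.21 and 0.23, and most other lists below 0.15.

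Most response lists did not vary as a block. The median correlation between the genes of a list was 0.48 and 0.53 for the 4 class II genes, and 0.06 and 0.21 for 14 interferon gamma genes. It was 0.07 and 0.06 for 22 genes of class I and peptide loading and 0.04 and 0.07 for 20 NF-kB genes, beside 0.015 and 0.001 over all pairs. Class II was thus high in both batches, the interferon gamma genes went together more in batch 3, and class I and NF-kB genes were near the level of all pairs. Heat shock genes had 0.21 and 0.23, with the chaperone genes Hspa8 and Hsp90ab1 at 0.43 and 0.50 (0.35 in batch 2 without the mitochondrial cells), and immediate early genes had 0.12 and 0.11, with Atf3 and Btg2 at 0.44 and 0.34. Single pairs repeated inside other lists, such as Irgm1 with Iigp1 (0.36 and 0.39), Krt8 with Krt18 (0.35 and 0.40), and Krt5 with Krt15 (0.29 and 0.33).

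A score per cell, the mean log2(CPM + 1) over the genes of a list, showed how lists went together across cells that share a batch and differ in depth. Of 253 pairs among 23 lists, 3 had a correlation of at least 0.3 in both batches. These were interferon gamma with class I (0.37 and 0.39), class II with class I (0.36 and 0.43), and squamous keratins with proximal duct genes (0.30 and 0.43). The last was 0.23 in batch 2 without the mitochondrial cells, and 0.33 with the near-identical pair counted once. NF-kB and chemokine scores had 0.43 and 0.28, and interferon gamma and class II scores 0.28 and 0.32. The class II score ran from 0 through a median of 2.17 to 10.81 in batch 2 and from 2.15 through 9.40 to 12.31 in batch 3. Class II and basal scores were opposed (-0.25 and -0.36), but without the adjustment for detected genes the values were -0.05 and -0.09. The number of detected genes moved with the scores, at 0.30 and 0.37 for class II and 0.56 and 0.53 for class I, and its part in them was not tested beyond the adjustment. Cells with a read of at least 10 of 28 G2 and M phase genes were 6 of 80 in batch 2 (7.5%) and 9 of 76 in batch 3 (11.8%), and 25 of those 28 genes were in few cells of both batches.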

How the data were processed

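Gene counts of single cells were read from 1 deposited table per batch. Per the submitters' processing notes, the authors used TopHat2, HTSeq, R 3.4.1, Seurat 1.4 and build GRCm38.p6 for these counts, with no role stated for each. The sources used here do not give the handling of strand, overlapping genes or reads with several matches. Of 48440 gene rows, 48058 had a symbol in GENCODE's annotation of that build. The limits of 1000 detected genes and 50000 counts were applied to each cell, and no doublet caller was run. Counts were scaled to a total of 1000000 (CPM) in each cell (Python 3.11.15, numpy 2.4.6, pandas 2.3.3, scipy 1.17.1). Excess variation used a lowess line of span 0.3 (statsmodels 0.14.6), TMM factors came from edgeR 4.0.16 in R 4.3.3, and correlations are Spearman's within a batch on ranks regressed on the rank of detected genes. Share intervals are exact Clopper-Pearson at 95%. With 1 sample per condition and batch, no p-value was computed. The measures were tested on simulated data.

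The members and gene lists were chosen with earlier results of these data known. Genes were named as the markers, the tightest uniform, the most concentrated few-cell, and the most variable genes, the highest and lowest pairs and marker partners, and list members for their role. Distinct pairs, the widest uniform genes and the variable response genes were added after the data were seen. A few results are not reported here. Promoter sequences are RefSeq's for GRCm38.p6.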

Additional observations from a re-analysis of the deposited data

How the results depend on the processing

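For 91 results, 867 values were recomputed under other settings, and none changed sign from a value at least 0.2 from 0. The 70 correlations of that size kept their sign under every setting run. Many of them had been named for their high or low values in these same cells, so a kept sign was likely from the start. Counts moved with the threshold and with the correlation used. With limits of 80% and 15%, 1058 genes and 43 response genes were uniform, and 3330 genes and 18 response genes were in few cells. At 5 reads 310 genes were uniform. At 10 CPM, added after the data were seen, 275 genes and 17 response genes were uniform and 55 response genes were in few cells. With genes in 50% of cells, where fewer genes are compared, 82 genes and 4 response genes were variable in both batches, 31.4% of the variable genes of batch 2 were also variable in batch 3, and 692 pairs reached 0.5. That share was 30.6% in cells thinned to 500000 counts (70 and 72 cells). By Pearson correlation of log2(CPM + 1), 2121 pairs reached 0.5. The distinct protein-coding pairs that did so, 0.000255% of such pairs, became 0.00153% by Pearson correlation, 0.00139% with genes in 50% of cells and 0.00014% with TMM scaling. The causes were not tested. The class II median ranged from 0.42 to 0.58 in batch 2 and from 0.42 to 0.59 in batch 3, and that of interferon gamma genes from -0.02 to 0.15 and from 0.19 to 0.25. Clk1 with Slc34a2 shrank to -0.13 in batch 2 by Pearson correlation. No paired analysis was possible because no result comes from a test. With 1 sample per batch and reads in place of molecules, a low share can be a limit of depth.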
